A study of Mus musculus with 45 samples.

Results

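The data describe what changed in mouse macrophages between 2 h and 4 h of exposure to interferon-gamma (IFN-gamma). The comparison sets 3 libraries taken at 4 h against 3 libraries taken at 2 h, paired by their replicate number, and covers the 11380 genes that reached at least 1 CPM (reads per 1e6 reads assigned to genes) in at least 3 of the 21 poly(A) libraries used. The series holds 45 samples in all. The cells were bone marrow-derived macrophages of strain C57BL/6, grown from marrow in medium conditioned by L929 cells and used on day 7 of differentiation. The 2 h and 4 h groups received IFN-gamma at 100 ng/ml. Untreated cells, cells given IL-4 at 10 ng/ml and cells given both cytokines at these doses, each with 3 libraries per time (3 in all for untreated cells), serve as references. No untreated library of 2 h or 4 h is labelled as such, so time in culture was not measured separately from time with the cytokine. Whether the replicates came from separate mice or cultures is not given in the labels. The p-values therefore reflect the spread among these libraries alone, possibly a technical one.

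IFN-gamma binds a receptor of the chains IFNGR1 and IFNGR2, whose kinases JAK1 and JAK2 phosphorylate STAT factors. STAT dimers bind GAS elements and induce IRF1 and other factors that bind ISRE elements, so that a first group of targets is followed by later ones. In macrophages the response is known for guanylate-binding proteins, antigen presentation, chemokines, nitric oxide synthase and itaconate production, and NF-kappaB and AP-1 factors take part at many of the inflammatory genes.

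The 6 libraries held 40633940 to 48237156 reads assigned to genes. All 8 macrophage markers were measured, with Lyz2 at 10130 CPM or more, Csf1r at 2524 CPM or more and Cd68 at 1170 CPM or more in each of the 6, while Pax5 (B cells) and Hbb-bt and Hba-a1 (erythroid cells) stood at 0 in all 6 libraries and Fcer1a (mast cells) at 0.0442 CPM or less. Markers of neutrophils and their precursors were present at a low level: 7 of 8 were tested and their sum ranged from 107 to 259 CPM at 2 h and from 85.8 to 266 CPM at 4 h as deposited, with none called by limma (1 at an unadjusted p under 0.05). Of the 9 T and NK cell markers 8 had values, which summed to 10.4 to 31.1 CPM at 2 h and 13.2 to 26.7 CPM at 4 h. Of these 2 were tested, and limma called Lck higher (4.45 to 7.05 CPM at 2 h and 6.76 to 12 CPM at 4 h as deposited). Among the other lists Cd79b (B cells) stood at 3.47 to 6.09 CPM and Kit (mast cells and other cells) at 2.40 to 9.56 CPM. Kdr (endothelium) stood at 9.39 to 32.6 CPM, all in the 6 libraries as deposited, and limma called none of them. It did call Pecam1 (endothelium) and Clec9a (dendritic cells) higher and Xcr1 (dendritic cells) lower at 4 h. Each of these called genes stood at 3.67 CPM or less in the 6 libraries as deposited. Of the 4 fibroblast markers tested none was called. The part of such cells in the results was not tested. Untreated replicates 2 and 3 carried 43.2% and 15.7% of their reads on the ribosomal RNA precursor Rn45s. The 6 IFN-gamma libraries carried at most 0.907%. On Lars2 these untreated libraries carried 7.42% and 2.76%, against at most 0.382% in the 6. Untreated values below were therefore read after rescaling. Whether rescaling removes all that sets these untreated libraries apart was not tested. In these bulk samples fewer cells of a type and less RNA per cell cannot be told apart.

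Between 2 h and 4 h, 2617 genes rose and 2553 fell (limma with the replicate number as a block, Benjamini-Hochberg adjusted p under 0.05). That is 45.4% of the genes tested, 23.0% higher and 22.4% lower. The counts of called members in each gene list below are to be read beside these shares. Of these, 406 rose and 173 fell by at least 1 on the log2 scale, and the median over all genes tested was 0.00. Without the block 2016 genes were called, 1115 higher and 901 lower. On the CPM as deposited 812 were higher and 1755 lower, where the median of all genes lay at -0.17, so changes below are relative to the median gene. Without replicate 3 in all groups 2641 genes were called. CPM values below are rescaled by median ratio, a change is on the scale log2(CPM + 1), and the value after ± is its standard error.

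**Figure D1:**
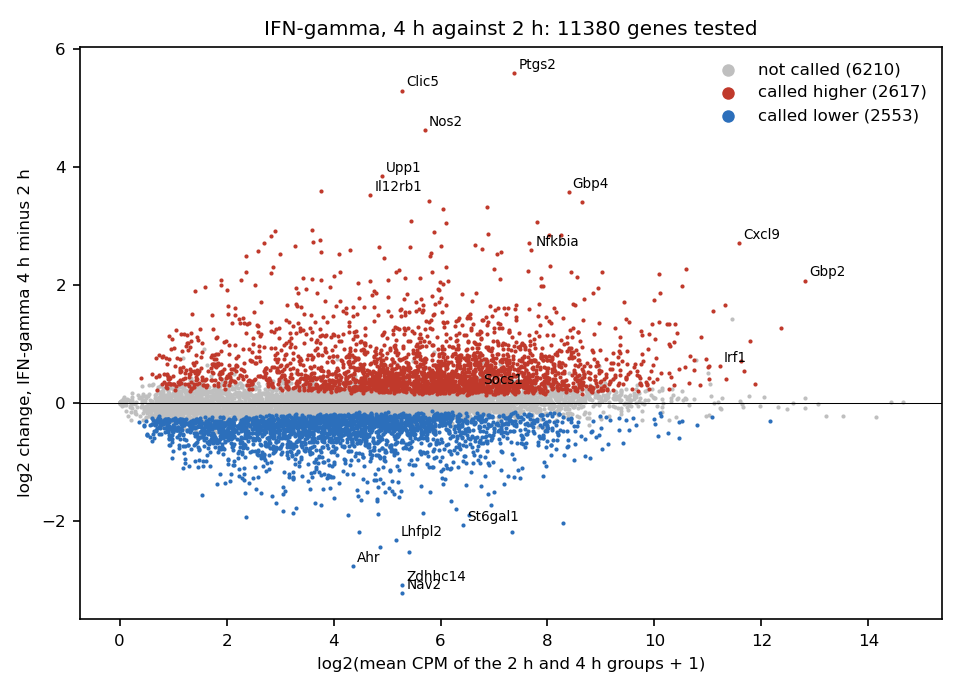
Change from 2 h to 4 h of IFN-gamma (vertical axis, log2) against the mean level of both groups (horizontal axis, log2 of CPM + 1), 1 point per gene tested, coloured by the limma call. Ptgs2, Clic5 and Nos2 lie highest, at changes of 5.60, 5.30 and 4.62, and Nav2 and Zdhhc14 lowest, at -3.22 and -3.08.

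Among the genes with the largest increases were enzymes of inflammatory mediators, a guanylate-binding protein (Gbp4), a cytokine receptor chain and NF-kappaB inhibitors. The genes of largest change in either direction were picked among those whose 2 h and 4 h libraries do not overlap, which held for 15.2% of the genes tested as higher and 14.4% as lower, so their separation is part of the choice. Ptgs2 encodes cyclooxygenase 2 of prostaglandin synthesis (chr1:150100031-150108227, GRCm38, GENCODE vM21). It stood at 9.11, 1.44 and 2.78 CPM in replicates 1 to 3 at 2 h and at 661, 61.3 and 255 CPM at 4 h. Replicate 2 was lowest at both times (log2 change 5.60 ± 0.39, adjusted p = 1.6e-08). Clic5, a chloride intracellular channel gene (chr17:44188584-44280172), was almost silent at 2 h with 0.823, 0.671 and 1.27 CPM and reached 81.7, 59.2 and 83.5 CPM at 4 h (5.30 ± 0.12, adjusted p = 7.2e-15). The 3 replicates of Clic5 lay close together at each time. Nos2, the inducible nitric oxide synthase (chr11:78920787-78960254), went from 4.04, 2.01 and 2.36 to 151, 51.1 and 95.3 CPM (4.62 ± 0.22, adjusted p = 2.0e-10). Upp1, a uridine phosphorylase, changed by 3.85 ± 0.21, and Il12rb1, the shared receptor chain of IL-12 and IL-23, by 3.53 ± 0.12, with 3.32, 3.17 and 2.86 CPM before and 47.3, 50.0 and 42.2 CPM after. Slco3a1, an organic anion transporter, rose by 3.29, and Vcam1, an adhesion molecule, by 2.94 with the widest spread of these genes (within-replicate changes of 4.15, 1.45 and 3.21).

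The largest decreases included regulators of cell shape, protein modification and cell death. Nav2, a neuron navigator gene (chr7:48908716-49610090), fell from 76.8, 85.0 and 46.4 CPM at 2 h to 4.75, 10.9 and 4.67 CPM at 4 h (-3.22 ± 0.18, adjusted p = 1.3e-09). Zdhhc14, a palmitoyltransferase gene, went from 90.2, 35.1 and 81.6 to 7.78, 5.09 and 7.43 CPM (-3.08 ± 0.20, adjusted p = 7.1e-09). At 2 h both were still near untreated cells, with fitted changes against them of -0.21 for Nav2 and -0.12 for Zdhhc14. Bmf, a pro-apoptotic BH3-only gene, changed by -2.52 ± 0.19, Ldlrad3 by -2.44 ± 0.31, Ncapg2, a condensin II subunit, by -2.19 ± 0.17, and St6gal1, a sialyltransferase, by -2.07 ± 0.15. Lhfpl2 had already fallen at 2 h, from 381, 323 and 316 CPM untreated to 64.8, 64.0 and 46.0 CPM, and reached 11.6, 18.4 and 5.51 CPM at 4 h (-2.33 ± 0.25, adjusted p = 1.7e-06). Slco2b1, another organic anion transporter, and Arrdc3, an arrestin-domain gene, followed the same order of levels, with changes of -2.18 and -1.87 from 2 h to 4 h. Apbb2 and Samd4 fell by 1.91 and 1.94 on the log2 scale, and the call of Samd4 was lost without the block (adjusted p = 0.093). In all, 472 called decreases ended at a 4 h mean under 0.5 times an untreated mean of at least 5 CPM.

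To place the change in the course from untreated cells, the genes were sorted by their level at 2 h. The 2 h libraries enter both steps, so the following counts are a description of the course and no test. Of 544 genes with a 2 h mean at least 2 times the untreated mean and at least 5 CPM, 240 rose further by 4 h, 104 fell and 200 were not called. Over all genes tested 23.0% rose and 22.4% fell. Another 1931 of the 2617 genes called higher rose to at least 5 CPM although their 2 h mean lay under 1.5 times the untreated mean. How many of all genes tested lay under that limit at 2 h was not counted. The 1931 therefore cannot be set beside the 23.0% and are not read as a trait of late genes.

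Genes that came down from an early peak included Ahr, the aryl hydrocarbon receptor (chr12:35497974-35535038). It stood at 9.20, 6.58 and 9.70 CPM in untreated cells, 42.9, 26.8 and 34.9 CPM at 2 h and 5.47, 2.78 and 4.65 CPM at 4 h (-2.77 ± 0.14, adjusted p = 2.7e-10). All 3 values at 4 h lay below all 3 untreated values. Ccr1, a chemokine receptor, came down from 69.5, 208 and 86.8 to 29.9, 46.8 and 19.6 CPM (-1.80 ± 0.18, adjusted p = 5.4e-07), which still exceeded its untreated 8.41, 20.2 and 10.7 CPM in each replicate. Adora3, the adenosine A3 receptor, fell from 25.2, 12.7 and 22.3 to 6.29, 3.85 and 5.59 CPM (-1.72 ± 0.17, adjusted p = 5.1e-07). Zfp608 and Tnfsf14, the ligand LIGHT of the TNF family, fell by 1.61 and 1.57 on the log2 scale. Tec, a tyrosine kinase gene, had risen less at 2 h (fitted change of 0.95 against untreated cells) and was then -1.89 lower.

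**Figure D2:**
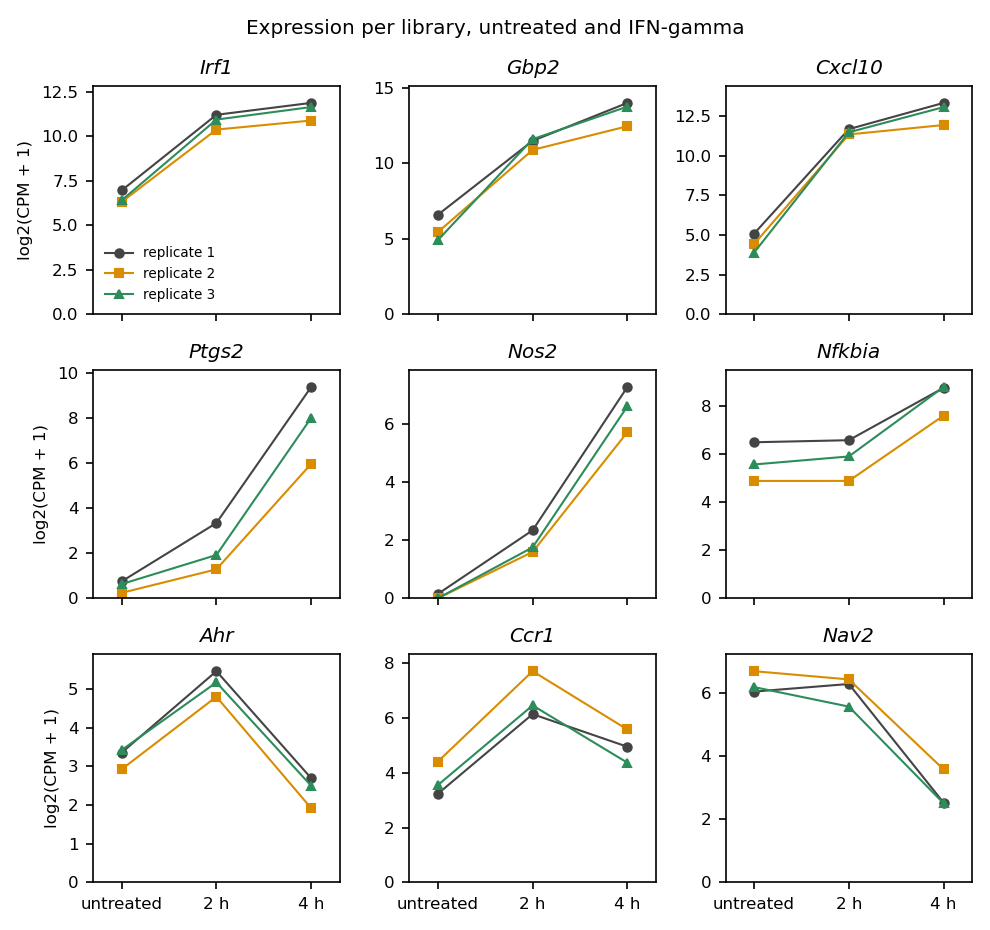
Level of 9 genes in each untreated, 2 h and 4 h IFN-gamma library (vertical axis, log2 of CPM + 1), with lines joining libraries of the same replicate number. Irf1, Gbp2 and Cxcl10 were high by 2 h and higher at 4 h, Ptgs2, Nos2 and Nfkbia rose mostly after 2 h, Ahr and Ccr1 peaked at 2 h, and Nav2 fell after 2 h.

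Promoters of genes with different courses are shown so that the courses can be set beside the elements named above. They span 250 bases before to 50 bases after the annotated start (RefSeq, GRCm38.p6). Capitals mark matches on either strand to GAS (TTCNNNGAA), ISRE (GAAA and GAAA with 2 bases between), kappaB (GGG and CC with 5 bases between) or AP-1 (TGANTCA). The kappaB pattern is loose, occurring in 50.4% of all 27025 promoters of this length, against 8.47% for GAS, 3.49% for ISRE and 7.93% for AP-1, and kappaB matches can overlap each other. Of the genes tested, 9180 (80.7%) had a promoter in the table and 7.03% of these held GAS, 3.36% ISRE, 67.8% kappaB and 4.87% AP-1. Among genes called higher the promoters were found for 80.4%, with GAS in 7.17%, ISRE in 4.89%, kappaB in 71.2% and AP-1 in 4.70%. For the 1931 genes that rose from a 2 h mean under 1.5 times untreated, promoters were found for 81.1%. Of these 5.3% held GAS, 3.13% ISRE, 72.7% kappaB and 4.09% AP-1. Differences between these shares were not tested. For the genes called lower (79.6%), the transient genes (76.0%) and the early genes that rose further (77.1%) the share with a promoter was below the minimum kept for such a count, and that check is void. Irf1, Cxcl10 and Gbp2 stand for genes high by 2 h and higher at 4 h, Ptgs2 and Nfkbie for genes that rose mainly after 2 h, and Adora3 for those that fell after 2 h. Irf1, Cxcl10 and Gbp2 were chosen after their promoters had been searched, and those printed are only some of the promoters searched. Of other genes that fell after 2 h, Ccr1 has a kappaB match at -74, and Tnfsf14 has kappaB matches and an AP-1 match. Of other genes with large or late increases, Clic5, Upp1 and Marcksl1 have kappaB matches and Traf1 has 0 matches of any kind. The printed genes therefore do not assign a motif to a course. Irf1 (chr11:53769764-53770063, plus strand) has a GAS match starting at base -90 besides kappaB matches, Cxcl10 (chr5:92348840-92349139, minus strand) an ISRE match at -213, an AP-1 match at -74 and kappaB matches, and Gbp2 (chr3:142620413-142620712, plus strand) an ISRE match at -59, an AP-1 match at -102 and a kappaB match at 8. Ptgs2 (chr1:150099781-150100080, plus strand) has a kappaB match at -23, Nfkbie (chr17:45555450-45555749, plus strand) kappaB matches at -106, -87 and -86 and an AP-1 match at -156, and Adora3 (chr3:105904171-105904470, plus strand) an AP-1 match at -98. A match is a string of letters and not a site of binding.
Irf1: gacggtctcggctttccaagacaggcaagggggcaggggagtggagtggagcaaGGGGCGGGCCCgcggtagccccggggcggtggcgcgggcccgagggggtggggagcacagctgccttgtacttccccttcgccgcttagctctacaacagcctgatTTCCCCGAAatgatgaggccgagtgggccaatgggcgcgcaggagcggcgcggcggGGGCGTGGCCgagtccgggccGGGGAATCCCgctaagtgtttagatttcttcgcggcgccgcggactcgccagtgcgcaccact
Cxcl10: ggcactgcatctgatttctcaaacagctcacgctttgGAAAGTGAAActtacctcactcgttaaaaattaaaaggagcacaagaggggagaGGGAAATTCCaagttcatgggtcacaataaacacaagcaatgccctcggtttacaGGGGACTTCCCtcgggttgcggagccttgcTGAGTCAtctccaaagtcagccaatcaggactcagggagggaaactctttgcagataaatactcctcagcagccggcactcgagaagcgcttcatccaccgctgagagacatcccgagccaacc
Gbp2: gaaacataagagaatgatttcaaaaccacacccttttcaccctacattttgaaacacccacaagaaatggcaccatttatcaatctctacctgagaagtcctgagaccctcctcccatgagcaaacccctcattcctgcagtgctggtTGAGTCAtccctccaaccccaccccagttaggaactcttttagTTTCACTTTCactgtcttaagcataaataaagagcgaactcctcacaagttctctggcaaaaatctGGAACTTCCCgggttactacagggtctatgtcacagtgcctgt
Ptgs2: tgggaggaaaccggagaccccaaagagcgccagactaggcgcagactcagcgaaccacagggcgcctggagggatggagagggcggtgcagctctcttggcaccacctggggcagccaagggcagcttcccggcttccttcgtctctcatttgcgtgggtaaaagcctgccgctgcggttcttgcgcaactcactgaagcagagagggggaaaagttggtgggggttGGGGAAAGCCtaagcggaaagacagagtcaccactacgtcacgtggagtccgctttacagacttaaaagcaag
Nfkbie: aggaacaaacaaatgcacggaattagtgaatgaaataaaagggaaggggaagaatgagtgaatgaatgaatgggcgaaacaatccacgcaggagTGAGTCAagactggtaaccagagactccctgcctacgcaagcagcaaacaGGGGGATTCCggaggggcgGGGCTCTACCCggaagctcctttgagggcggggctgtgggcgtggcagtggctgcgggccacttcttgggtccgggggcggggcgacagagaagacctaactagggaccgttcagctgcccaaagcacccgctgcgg
Adora3: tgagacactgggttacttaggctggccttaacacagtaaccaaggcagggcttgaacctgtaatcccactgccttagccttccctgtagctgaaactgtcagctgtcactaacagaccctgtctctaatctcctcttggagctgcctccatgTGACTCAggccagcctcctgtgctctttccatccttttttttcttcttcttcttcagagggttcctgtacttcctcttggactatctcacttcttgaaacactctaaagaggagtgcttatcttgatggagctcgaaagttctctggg

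Components of the IFN-gamma pathway itself also changed. Irf8, a myeloid interferon regulatory factor, rose in all replicates by a like amount, from 1003, 647 and 816 to 2057, 1312 and 1571 CPM (1.00 ± 0.09, adjusted p = 3.3e-07). Irf1 (chr11:53770014-53778374) was already at 2339, 1315 and 1940 CPM at 2 h, against 122, 77.8 and 82.8 CPM untreated, and stood at 3716, 1870 and 3161 CPM at 4 h (0.63 ± 0.11, adjusted p = 1.5e-04). Its groups overlapped, with replicate 2 lowest at both times and each replicate higher at 4 h, and the call rested on the pairing (adjusted p = 0.14 without the block and 0.098 on the CPM as deposited). Irf5, which acts downstream of Toll-like receptors, changed by 1.12 ± 0.07. Of the 8 interferon regulatory factors tested 6 rose and 1 fell, with a median of 0.59 against 0.00 for all genes tested, and 3 were called higher without the block, 2 on the CPM as deposited and 4 without replicate 3. The calls of Stat3 (0.44, adjusted p = 0.27) and Irf7 (0.61, adjusted p = 0.38) were also lost without the block. Ifngr2, the signalling chain of the receptor, had gone down from 169, 108 and 145 CPM untreated to 78.7, 47.8 and 82.6 CPM at 2 h and was back at 156, 102 and 159 CPM at 4 h (1.00 ± 0.07, adjusted p = 2.4e-08). Of 7 STAT factors 3 were called higher and 1 lower (median 0.21), but 2 and 3 by edgeR, and 1 and 0 both without the block and without replicate 3. Jak2 rose by 0.90 ± 0.09, and of 12 receptor chains and JAKs 6 rose and 2 fell (median 0.14), with 2 higher on the CPM as deposited and none lower without replicate 3.

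Feedback inhibitors did not follow one direction. Socs1, which blocks JAK kinases, held 107, 92.3 and 86.9 CPM at 2 h and 127, 99.1 and 114 CPM at 4 h, against 1.31, 0.845 and 0.520 CPM in untreated cells, and its change did not pass the test (0.24 ± 0.19, adjusted p = 0.32). Socs3 differed in direction between replicates, from 485, 266 and 342 CPM to 709.8, 174 and 682 CPM, lower at 4 h in replicate 2 only (0.31 ± 0.27, adjusted p = 0.37). It was called without 4 h replicate 2 (0.73) and not with it. Ptpn6 and Ptpn2, phosphatases of JAK-STAT signalling, rose by 0.90 ± 0.07 and 0.64 ± 0.10, while Socs6 and Socs2 changed by -1.05 and -0.70. The call of Ptpn2 was lost on the CPM as deposited and that of Socs2 with a pseudocount of 5. Over the 14 members tested 5 rose, 3 fell and 6 were not called (median 0.19), with 3 higher without the block and 1 on the CPM as deposited.

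Guanylate-binding proteins are GTPases that attack vacuoles of intracellular pathogens. All 11 genes of this family rose from 2 h to 4 h, with a median of 2.08 and a range of 0.66 to 3.58. Of these, 9 were called without the block, 10 on the CPM as deposited and 10 without replicate 1 in all groups. Gbp4 went from 45.7, 47.2 and 56.9 to 755, 434 and 674 CPM (3.58 ± 0.22, adjusted p = 2.9e-09). Gbp2 (chr3:142620602-142638008) reached 16259, 5571 and 13699 CPM from 2849, 1879 and 3076 CPM (2.08 ± 0.31, adjusted p = 4.7e-05). In both genes replicate 2 was lowest at 4 h. Gbp6, Gbp2b, Gbp9 and Gbp11 changed by 2.85, 2.53, 2.21 and 2.12. GENCODE vM21 lists Gbp11 as a polymorphic pseudogene. Gbp2b was still under 2 CPM at 2 h in each library. All 11 members had their lowest within-replicate change in replicate 2, where the list's median was 1.75 against 2.45 and 2.15 in replicates 1 and 3. Of the 7 immunity-related GTPases tested, which act on the same vacuoles, 4 rose and none fell (median 1.35). Tgtp1 led with 3.06 ± 0.30, and Iigp1 and Igtp followed with 1.67 and 1.35. The call of Igtp was lost without replicate 1 in all groups (1.24). Irgm1, which regulates the other members, went from 1950, 1360 and 1717 to 3244, 1657 and 2440 CPM and did not pass the test (0.51 ± 0.30, adjusted p = 0.18), though it was called without 4 h replicate 2 (0.81). These families, and the MHC genes below, hold near-identical copies, and how reads shared between copies were counted is not given in the sources used here.

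**Figure D3:**
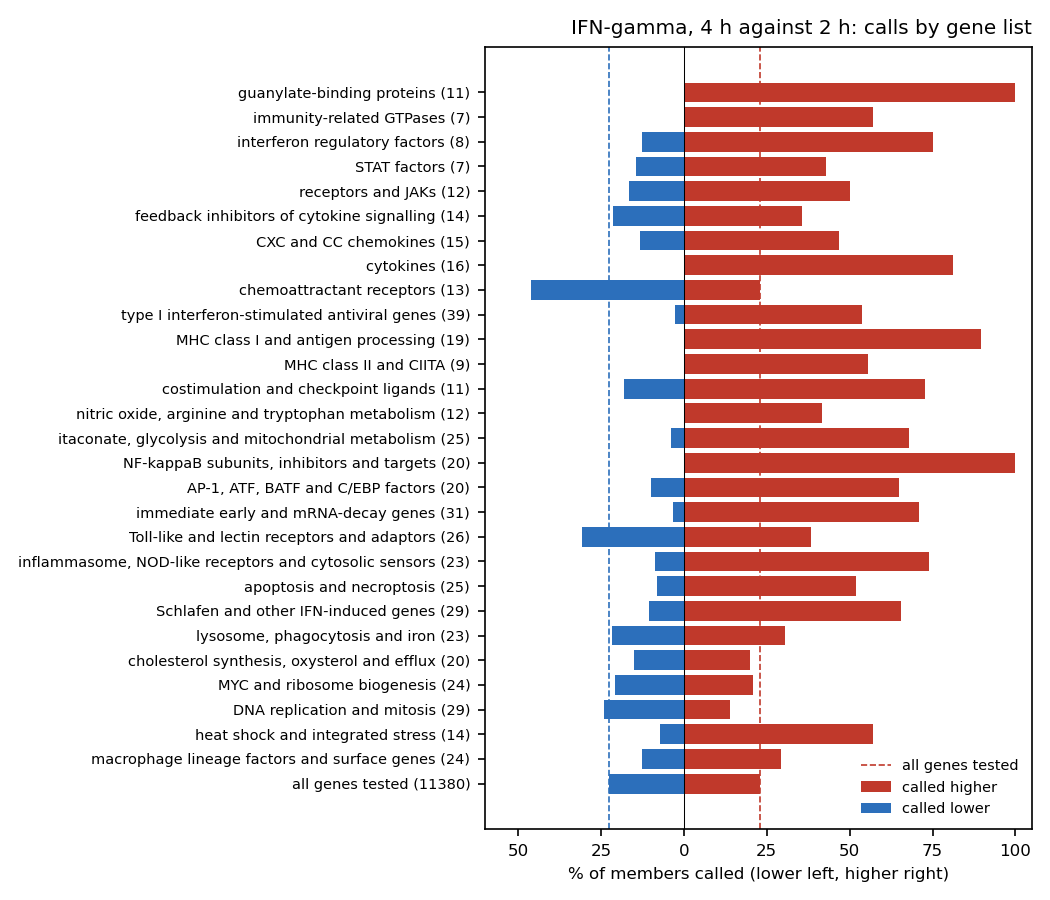
Share of the tested members of each gene list that limma called higher (right) or lower (left) at 4 h than at 2 h of IFN-gamma, with the number tested in brackets. Dashed lines mark the shares over all genes tested (23.0% higher and 22.4% lower). Every member of the guanylate-binding protein and NF-kappaB lists was called higher, and among the chemoattractant receptors more were called lower than higher.

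In antigen presentation, 17 of 19 genes of MHC class I and its peptide supply rose and none fell (median 1.01). Tap1 and Tap2 form the peptide transporter. Tap2 went from 143, 96.2 and 169 to 465, 303 and 485 CPM (1.62 ± 0.15, adjusted p = 3.3e-07) and Tap1 from 379, 265 and 430.4 to 1009, 654 and 938 CPM (1.28 ± 0.28, adjusted p = 0.0015). The times did not overlap in either gene. Nlrc5, the transactivator of class I genes, changed by 1.20 ± 0.28, Tapbpl, a peptide editor, by 1.48 ± 0.10, and the class I gene H2-Q4 by 1.40. Ciita, the transactivator of MHC class II genes (chr16:10480059-10528418), stood at 22.4, 7.36 and 18.3 CPM at 2 h and 122, 56.1 and 107 CPM at 4 h (2.55 ± 0.11, adjusted p = 1.5e-10). H2-DMa, a peptide-loading subunit, rose by 1.26 ± 0.07, while the increases of Cd74, the invariant chain (0.86), and H2-Ab1 (0.65) were lost without the block (adjusted p = 0.57 and 0.61). In all, 5 of 9 class II members rose and none fell (median 0.41), with 2 higher without the block and 3 on the CPM as deposited.

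Costimulatory and checkpoint ligands rose in 8 of 11 cases and fell in 2 (median 1.25), with none lower without the block. Cd40, a receptor for T cell help, went from 170.5, 80.3 and 141 to 965, 299 and 577 CPM (2.14 ± 0.19, adjusted p = 1.7e-07). Icam1, the ligand of LFA-1, reached 3401, 1009 and 2716 CPM from 703, 335 and 644 CPM (1.98 ± 0.14, adjusted p = 1.8e-08). Neither overlapped between the times. Tnfsf9, Icosl and Cd86, ligands of T cell costimulatory receptors, changed by 2.60, 1.73 and 1.58. Cd274, which encodes PD-L1, was 0.92 higher, and that call was lost without the block (adjusted p = 0.07).

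Transcripts of the 3 chemokine genes of the receptor CXCR3 all rose. Cxcl9 went from 939, 338 and 855 CPM at 2 h to 9087, 1445 and 5826 CPM at 4 h (2.71 ± 0.32, adjusted p = 4.0e-06). Cxcl10 (chr5:92346638-92348889) was closer to its 4 h level at 2 h, with 3294, 2610 and 2867 and then 10387, 3943 and 8629 CPM (1.28 ± 0.25, adjusted p = 5.5e-04). Within replicate 2 it changed by 0.60, against 1.66 and 1.59 in the others. Cxcl11 rose by 3.08 ± 0.27. GENCODE vM21 lists Cxcl11 as a polymorphic pseudogene, and whether its transcript gives a protein in these cells was not measured. Ccl5, an attractant of T cells and monocytes, was near its untreated level at 2 h, with 15, 4.23 and 2.84 CPM untreated, 15.5, 3.88 and 4.20 CPM at 2 h and 167, 28.0 and 104 CPM at 4 h (3.42 ± 0.32, adjusted p = 3.3e-07). Cxcl2, a neutrophil attractant, was under 2 CPM at 2 h and at 15.2, 2.35 and 14.0 CPM at 4 h (2.71 ± 0.34, adjusted p = 8.8e-06). Of 15 chemokines tested 7 rose and 2 fell (median 0.66), none of them called lower without the block. The median was 0.97 and 1.16 within replicates 1 and 3 and 0.10 within replicate 2.

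Of 16 cytokine genes 13 rose and none fell (median 0.76), with 6 higher without the block and 8 on the CPM as deposited. Tnf (chr17:35199381-35202007) was at 112, 26.7 and 61.7 CPM at 2 h and at 999, 242 and 954 CPM at 4 h, higher in every replicate (3.40 ± 0.31, adjusted p = 2.3e-07). Il27, a subunit of interleukin 27, went from 2.69, 1.57 and 2.34 to 34.2, 10.3 and 23.6 CPM (2.76 ± 0.22, adjusted p = 8.0e-08). Il1b stayed low, with 2.74, 0.634 and 0.795 and then 10.6, 1.00 and 6.92 CPM (1.36 ± 0.36, adjusted p = 0.0058), and its call was lost without the block (adjusted p = 0.082), without replicate 1 (1.22) and without replicate 3 (0.96). Il12b did not reach the level needed for the test. Receptors for attractants went the other way more often, with 3 of 13 higher and 6 lower (median -0.26). This was not particular to IFN-gamma alone, as the list's median over the same interval was -0.70 under IL-4 and -0.82 with both cytokines. S1pr1, a receptor for sphingosine 1-phosphate, had fallen from 116, 90.1 and 117 CPM untreated to 9.13, 7.96 and 7.53 CPM at 2 h and to 2.53, 2.67 and 1.51 CPM at 4 h (-1.52 ± 0.28, adjusted p = 3.5e-04). Cx3cr1 changed by -1.54 ± 0.31 and Cxcr4 by -1.14, the latter not called without the block (adjusted p = 0.25). Ccrl2, an atypical receptor that presents chemerin, rose by 2.53 ± 0.29.

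All 20 genes of the NF-kappaB list (subunits, inhibitors and known targets) rose, with a median of 1.43. Of these, 14 were called without the block. Nfkbia encodes IkappaB-alpha (chr12:55489410-55492647). It was at its untreated level at 2 h, with 88.5, 28.4 and 46.2 CPM untreated and 94.0, 28.4 and 58.5 CPM at 2 h, and reached 428, 192 and 438 CPM at 4 h (2.59 ± 0.18, adjusted p = 1.8e-08). Nfkbie, which encodes IkappaB-epsilon (chr17:45555703-45563169), went from 32.8, 7.36 and 22.1 to 327, 95.2 and 211 CPM (3.33 ± 0.19, adjusted p = 1.2e-09). Tnfaip3, the deubiquitinase A20, went from 72.4, 20.8 and 41.2 to 591, 143 and 472 CPM (3.07 ± 0.19, adjusted p = 4.6e-09). In all 3 genes replicate 2 was lowest at each time. Traf1, an adaptor of TNF receptors, and Nfkbid changed by 2.74 and 2.22. Over the list the fitted median against untreated cells was 0.26 at 2 h and 1.95 at 4 h, against 4.12 and 5.60 for the guanylate-binding proteins. The medians share the untreated libraries and are given side by side only.

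Immediate early genes and genes of mRNA decay rose in 22 of 31 cases and fell in 1 (median 0.88), with 12 higher without the block. Dusp1, a MAP kinase phosphatase, stood at 11.0, 7.12 and 5.59 CPM untreated, 2.25, 0.708 and 0.920 CPM at 2 h and 10.2, 4.58 and 9.94 CPM at 4 h (2.00 ± 0.19, adjusted p = 5.4e-07). Fos, an AP-1 subunit of the next list, showed 25.9, 9.30 and 11.5, then 5.89, 1.79 and 2.16 and then 16.4, 14.5 and 12 CPM (1.95 ± 0.17, adjusted p = 1.8e-07). For both, each replicate was lower at 2 h than untreated and higher again at 4 h. Egr3, Dusp2, Gadd45b and Btg2 rose by 2.92, 2.58, 2.30 and 1.91, and Egr1 by 1.87 with its call lost without the block (adjusted p = 0.15). Of 20 AP-1, ATF, BATF and C/EBP factors 13 rose and 2 fell (median 0.61), with 6 higher without the block and 7 on the CPM as deposited. Junb, an AP-1 subunit, went from 84.8, 33.8 and 43.3 to 258, 159 and 249 CPM.

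Other late genes were not on these lists. Marcksl1, a membrane-associated protein kinase C substrate, went from 96.2, 25.1 and 50.5 to 779, 130.1 and 476 CPM (2.85 ± 0.22, adjusted p = 5.0e-08), and Rgs1, a regulator of G protein signalling, from 33.0, 32.1 and 18.3 to 275, 174 and 176 CPM (2.87 ± 0.24, adjusted p = 1.1e-07). At 2 h their fitted changes against untreated cells were 0.07 and 0.56. Rasgef1b and Plau (urokinase) rose by 2.72 and 2.61. Tgif1, a homeobox repressor, was below untreated cells at 2 h, with 68.8, 46.1 and 52.5 CPM untreated, 14.6, 7.01 and 9.42 CPM at 2 h and 110.4, 37.9 and 72.7 CPM at 4 h (2.65 ± 0.18, adjusted p = 1.1e-08).

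Among innate sensors, 17 of 23 inflammasome genes, NOD-like receptors and cytosolic sensors rose and 2 fell (median 0.59). In the fit with no block 8 were called higher and 1 lower. Nlrp3 (chr11:59541568-59566956) went from 89.9, 33.7 and 52.0 CPM at 2 h, below its untreated 95.4, 55.6 and 74.9 CPM in each replicate, to 596, 91.0 and 321 CPM at 4 h (2.24 ± 0.28, adjusted p = 7.4e-06). Nod2, a sensor of muramyl dipeptide, rose by 1.71 ± 0.28. Toll-like and lectin receptors and their adaptors were split, with 10 of 26 higher and 8 lower (median -0.01), or 4 in each direction without the block. Tlr9, a DNA receptor, rose by 1.24 ± 0.18, and Tlr2 changed by 1.45 with its call lost without the block (adjusted p = 0.17). Of 25 genes of apoptosis and necroptosis 13 rose and 2 fell (median 0.30), with 8 higher without the block. Those that rose included Tnfsf10, which encodes TRAIL (1.62), Mlkl, the necroptosis effector (1.16), and Pmaip1, which encodes NOXA (1.02).

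Genes classically induced by type I interferon changed moderately, with 21 of 39 higher and 1 lower (median 0.57). Only 5 were higher without the block, 14 without replicate 1 and 13 without replicate 3. Samhd1, a dNTP hydrolase that restricts viruses, went from 1389, 794 and 1058 to 4461, 2002 and 3392 CPM (1.57 ± 0.18, adjusted p = 2.7e-06). Ifi205, Zbp1 and Herc6 rose by 1.67, 1.55 and 1.47. A further list of Schlafen and other interferon-induced genes had 19 of 29 members higher and 3 lower (median 0.79), with 11 higher and 1 lower in the fit with no block. Serpina3g, a serine protease inhibitor, led it, going from 498, 286 and 375 to 2437, 1173 and 1785 CPM (2.19 ± 0.19, adjusted p = 1.5e-07), and reads may be shared with its close paralogs. Ubd, a ubiquitin-like protein, and Ly6a, a surface antigen, rose by 1.91 and 1.87, the latter not called without the block (adjusted p = 0.29). On the type I list Isg15, a ubiquitin-like modifier, was 1.28 higher, not called without the block (adjusted p = 0.17).

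In metabolism, 17 of 25 genes of itaconate synthesis, glycolysis and mitochondrial metabolism rose and 1 fell (median 0.41), with 10 higher without the block. Irg1, the enzyme that makes itaconate (chr14:103046977-103056573), went from 752, 336 and 435 to 4173, 1250 and 2354 CPM (2.26 ± 0.33, adjusted p = 3.5e-05). Slc2a6 and Slc2a1, both sugar transporters of the GLUT family, rose by 1.68 ± 0.11 and 1.40 ± 0.14. Pfkp, Hk3 and Slc16a3, a phosphofructokinase, a hexokinase and a lactate transporter, rose by 1.60, 1.38 and 1.52. Of 12 genes of nitric oxide, arginine and tryptophan metabolism 5 rose and none fell (median 0.31), with 2 higher without the block and on the CPM as deposited. Besides Nos2 they included Wars, a tryptophanyl-tRNA synthetase (1.77 ± 0.21). Genes of iron and lysosomes lay near the shares over all genes tested (23.0% higher and 22.4% lower), with 7 of 23 higher and 5 lower (median -0.02). Without the block 2 of them were called in each direction. Slc40a1, the iron exporter ferroportin (chr1:45908068-45926523), fell from 126, 94.5 and 111 to 37.6, 42.5 and 24.1 CPM (-1.67 ± 0.27, adjusted p = 1.0e-04), and Hmox1, the haem oxygenase, by 1.13 on the log2 scale. The cholesterol exporter Abca1 changed by -1.38 ± 0.19. It is on a list of 20 genes of cholesterol handling, of which 4 rose and 3 fell (median 0.12), also near these shares. Of this list 10 were higher without replicate 2 and 1 on the CPM as deposited.

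Of 24 macrophage lineage genes 7 rose and 3 fell (median 0.08), with 1 higher without the block. Over all genes tested 23.0% were higher and 22.4% lower. Spi1, which encodes the lineage factor PU.1, rose by 0.90 ± 0.08, and Cd163, a scavenger receptor, changed by -1.27 ± 0.16. In DNA replication and mitosis 4 of 29 genes rose and 7 fell (median -0.25), and none of the 7 was called lower without the block. Those that rose included cyclin D2, Ccnd2 (2.65), Cdkn1a, the cell cycle inhibitor p21, from 226, 153 and 176 to 1144, 339 and 920.0 CPM (1.95 ± 0.24, adjusted p = 7.4e-06), and cyclin D1, Ccnd1 (1.67, adjusted p = 0.12 without the block). Mcm4, a subunit of the replicative helicase, changed by -0.68 (adjusted p = 0.39 without the block). Genes of MYC and ribosome biogenesis lay near the shares over all genes tested, with 5 of 24 in each direction (median 0.04). Without the block 1 was called in each direction. Mxd1, a MYC antagonist on this list, rose by 2.56 ± 0.17. Of 14 heat shock and stress genes 8 rose and 1 fell (median 0.29), with 4 higher without the block and 1 on the CPM as deposited. Herpud1 and Hspa5, both of the endoplasmic reticulum, rose by 1.51 and 0.73, the latter with adjusted p = 0.053 on the CPM as deposited.

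**Figure D4:**
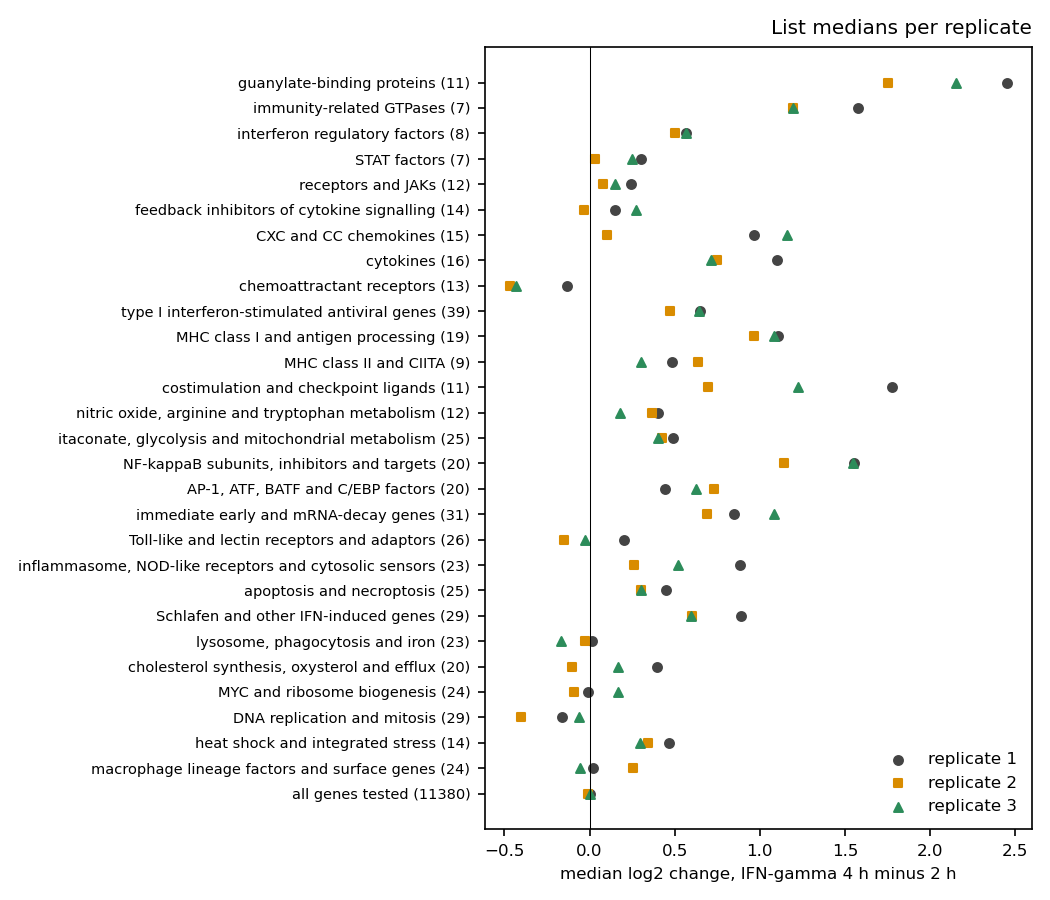
Median change from 2 h to 4 h of IFN-gamma over the members of each gene list, within each replicate number (horizontal axis, log2), with the number tested in brackets. Replicate 2 lies lowest for the guanylate-binding proteins, the chemokines and the NF-kappaB list (1.75, 0.10 and 1.14), and all 3 replicates lie near 0 for all genes tested.

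The size of the response differed between replicates. The standard deviation of the change over all genes was 0.59, 0.47 and 0.53 within replicates 1, 2 and 3, and 551, 337 and 457 genes were higher there by more than 1 on the log2 scale. Over the 406 genes called higher by at least 1, which these values chose, the medians were 1.60, 1.20 and 1.49.

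The same interval under the other cytokines gives the change seen without IFN-gamma or with IL-4 added, in libraries not shared with the IFN-gamma groups. From 2 h to 4 h of IL-4 alone 2282 genes were called (20.1%, with 9.48% higher and 10.6% lower), and 5355 (47.1%) with both cytokines. The difference between the change under IFN-gamma and that under IL-4 passed the test for 3731 genes (32.8%), 1971 higher and 1760 lower under IFN-gamma (limma interaction contrast). Without the block this count was 945, on the CPM as deposited 1200 (506 higher and 694 lower), without replicate 1 in all groups 1964 and without replicate 3 in all groups 1390. For the guanylate-binding proteins the median change was 2.08 under IFN-gamma and 0.19 under IL-4, and 10 of 11 differed. For the NF-kappaB list the medians were 1.43 and 0.01, and 19 of 20 differed.

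The comparison with both cytokines asked whether IL-4 altered the course under IFN-gamma. The difference passed the test for 822 genes (7.22%), 494 (4.34%) with a larger and 328 (2.88%) with a smaller value under IFN-gamma alone. This count rested on the pairing and on single replicates: it was 42 without the block, 203 on the CPM as deposited, 141 without replicate 1 in all groups, 29 without replicate 3 and 1387 without replicate 2. It was also 1383 without 4 h replicate 2 of IFN-gamma, 538 without 4 h replicate 3 and 521 without 2 h replicate 3. The NF-kappaB list had a median change of 1.43 under IFN-gamma alone and 0.42 with IL-4, and 15 of its 20 members were called higher alone and none lower. That count was 1 without the block, 7 without replicate 1, 0 without replicate 3 in all groups, 19 without replicate 2 and 9 on the CPM as deposited, while the median difference over the list was 1.01 here and ranged from 0.90 to 0.94 on the deposited CPM and without replicate 1 or 3. Tnfaip3 changed by 3.07 alone and by 0.93 with IL-4, and Nfkbia by 2.59 and 0.88. Clic5 rose by 5.30 and 3.67.

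For lists of the core IFN-gamma response few members passed this test, which 7.22% of all genes tested passed. In lists of this size such low counts can be near that share and are not read as a trait of the lists. The guanylate-binding proteins had medians of 2.08 alone and 2.17 with IL-4, and 1 of 11 differed (0 without the block). For MHC class I the medians were 1.01 and 1.09, and 0 of 19 differed by limma (1 at an unadjusted p under 0.05, and 0 by edgeR). For the type I interferon-stimulated genes they were 0.57 and 0.57, and 0 of 39 differed by either tool (0 in limma at an unadjusted p under 0.05). Il12rb1 changed by 3.53 alone and 3.56 with IL-4, a difference of -0.04 with a standard error of 0.17. A difference that misses the threshold does not show equal changes.

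**Figure D5:**
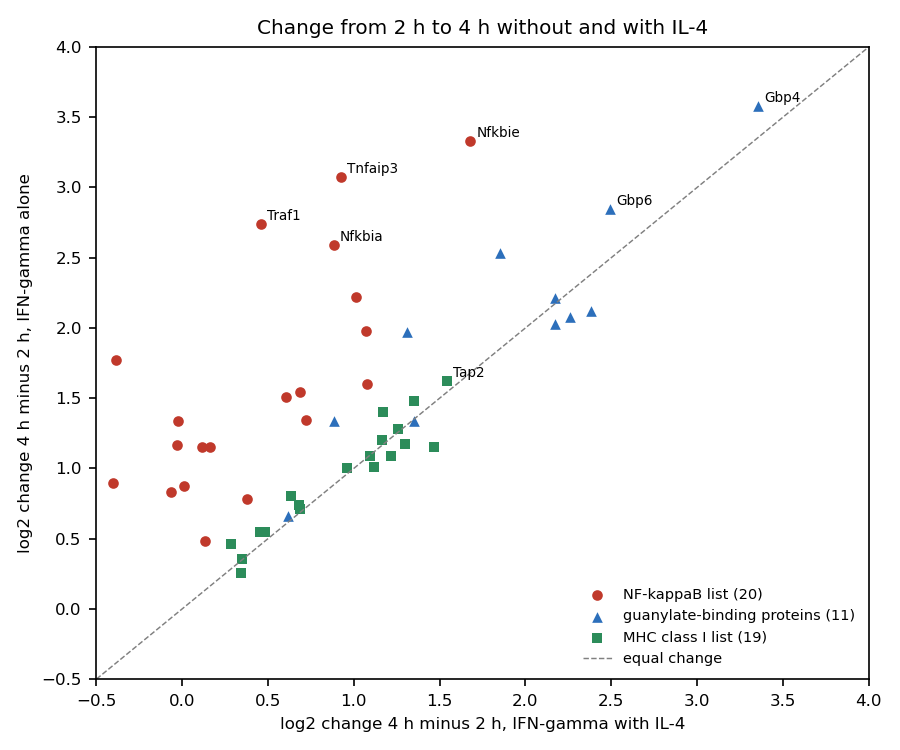
Change from 2 h to 4 h (log2) under IFN-gamma alone (vertical axis) against that under IFN-gamma with IL-4 (horizontal axis) for the members of 3 gene lists, 1 point per gene. Most points of the guanylate-binding proteins and MHC class I lie near the dashed line of equal change, and those of the NF-kappaB list above it, as their medians of 1.43 alone and 0.42 with IL-4 show.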

How the data were processed

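Poly(A) RNA libraries were made with a TruSeq kit, per the labels' protocols, and TopHat2 2.1.0, HTSeq, edgeR and the builds mm10 and GRCm38 are listed in the submitters' processing notes. The deposited table holds CPM (reads per gene scaled by the authors to the library's total of reads assigned to genes) for 24421 genes. All values came out as whole reads (100% within 0.01 read), from which library totals and the recovered counts for edgeR and DESeq2 were taken. The strand setting is not given in the sources used here. The other 24 samples were not analysed here.

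Libraries were rescaled by median ratio, and log2(CPM + 1) of the 11380 genes reaching 1 CPM in 3 or more of the 21 libraries was fitted with limma 3.58.1 (R 4.3.3; a mean per group, replicate block, trended variance, 12 residual degrees of freedom). Calls had a Benjamini-Hochberg adjusted p under 0.05. The 2 h and 4 h libraries of the same number deviated together from their group means (correlations of 0.791, 0.839 and 0.779), and over all groups every same-number pair correlated at 0.540 or more, so the numbers were taken to pair the samples. Alternatives were no block, no rescaling, TMM, other pseudocounts and filters, edgeR 4.0.16, DESeq2 1.42.0 and leaving out replicates. Scripts were tested on simulated data.

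The comparison, the gene lists and the rule for named genes were chosen with earlier results of these data known. Named genes were a fixed set of IFN-gamma genes, the 15 largest non-overlapping called changes per direction at 5 CPM or more, up to 6 called and 2 uncalled members per list, up to 12 transient and 12 late genes, up to 10 that fell below untreated cells, and 8 differences per direction and contrast. Some genes that these rules name are not reported here. Gene coordinates are from GENCODE vM21.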

Additional observations from a re-analysis of the deposited data

Results flagged for a closer look

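The change from 2 h to 4 h under IFN-gamma differed from the change under the other cytokines in the limma contrast of the changes themselves. Against IL-4 the count was 3731 genes and against both cytokines 822, with 42 of the latter left without the replicate block and 29 without replicate 3 in all groups. The values below are differences of log2 changes for the genes with the largest ones in each direction.

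Against IL-4, the difference was 5.53 for Ptgs2, 5.30 for Clic5, 4.53 for Nos2 and 3.86 for Upp1, whose change under IL-4 was between 0.00 and 0.09 or, for Upp1, -0.01. It was 3.72 for Ccl5, 3.69 for Slco3a1, 3.64 for Nfkbie and 3.51 for Il12rb1. In the other direction Retnla, a secreted marker of IL-4 responses, differed by -4.14, with a change of 4.17 under IL-4 and 0.02 under IFN-gamma, and edgeR and DESeq2 did not call it. Scn3a, a sodium channel gene, differed by -3.08 and Tmem26 by -2.31, also through the rise under IL-4 (3.05 and 2.31). Ahr differed by -2.63 and Slco2b1 by -2.48, both with their decrease under IFN-gamma. Tanc2, Lpin1 (a phosphatidate phosphatase) and Arl15 differed by -2.51, -2.39 and -2.35, having fallen under IFN-gamma and risen under IL-4.

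Against both cytokines, the difference was 3.24 for Ccl5, 2.92 for Nos2, 2.73 for Rasgef1b, 2.70 for Clec4e (the lectin receptor Mincle), 2.68 for Marcksl1, 2.64 for Cxcl2, 2.42 for Ptgs2 and 2.40 for Arl5c. Ccl5 changed by 3.42 under IFN-gamma alone and by 0.18 with IL-4. Genes with the larger change when IL-4 was present were Apol7c (-2.88), Arg1, the arginase of alternatively activated macrophages (-2.70), Prr15 (-2.25), Tmem26 (-2.11), Ccl24 (-2.06), Osbpl3 (-1.93), F2r, a thrombin receptor (-1.88), and Prps1 (-1.74). Without the block Nos2, Prr15, Tmem26, Osbpl3 and Prps1 remained called among these 16. Arg1 and F2r were not called by edgeR or DESeq2.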

How the results depend on the processing

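Of the alternatives, TMM factors, pseudocounts of 0.1 and 5, other filters on low values, edgeR and DESeq2 kept the 3 counts within 1.5 times. The replicate block, the rescaling and single replicates did not. Genes called between 2 h and 4 h numbered 5170, and 2016 without the replicate block, 2567 on the CPM as deposited and between 2641 and 5533 with a replicate left out. For the difference from IL-4 the count of 3731 became 945 without the block, 1200 on the deposited CPM and 1390 to 4137 with a replicate left out (1964 without replicate 1 in all groups). For the difference from both cytokines the count of 822 became 42 without the block, 203 on the deposited CPM and 29 to 1387 with a replicate left out (141 without replicate 1 in all groups, 1383 without 4 h IFN-gamma replicate 2 and 521 without 2 h IFN-gamma replicate 3). On the deposited CPM 31.6% of the calls between 2 h and 4 h were increases, against 50.6% after rescaling, and for the difference from IL-4 42.2% against 52.8%. Among the named values 26 calls were lost without the block and 7 on the deposited CPM. Leaving out replicate 3 in all groups lost 12 of these calls, and leaving out replicate 1 lost 7. Socs3 was the single value that turned, to -0.028 without replicate 3 in all groups, and it was not called there or in the fit reported. The cause was not tested. Leaving out the untreated libraries, an alternative chosen after seeing the data, gave 5223, 3743 and 810. On simulated counts at 3 libraries a group the fit recovered 26.9% of 1.5-fold, 79.1% of 2-fold and 97.0% of 4-fold changes. Small changes were the ones most often missed there. The simulation gave all genes the same spread setting and had no replicate effect. Only 66 or 67 of 11380 genes changed at each fold, against 5170 genes called in the data. These rates therefore need not hold for the data.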

Other observations

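Of the genes with at least 5 CPM in untreated cells, 258 had a 2 h mean under 0.5 times the untreated mean. By 4 h 79 of them had risen and 75 had fallen further, against 23.0% and 22.4% of all genes tested, and 31 of those that rose were within 1.5 times of the untreated mean again. The 2 h libraries chose these genes and also enter the change to 4 h, so the counts are a description. This rule was chosen after values had been seen, and its untreated libraries include 2 with much Rn45s. With the untreated and 2 h levels read in replicate 1 alone, whose untreated library held 0.151% Rn45s, the rule also gave 79 genes, 73 of them the same. The call of the rise still came from the fit to all replicates. Replicate 1 also enters the means, so part of this overlap is built in. Nfatc2, a transcription factor of calcium signalling, stood at 61.5, 47.4 and 63.2 CPM untreated, 10.0, 8.22 and 7.43 CPM at 2 h and 25.1, 53.5 and 42.8 CPM at 4 h (2.06 ± 0.21, adjusted p = 9.0e-07, limma). Cnr2, the cannabinoid receptor of immune cells, showed 46.6, 43.2 and 59.2, then 12.9, 13.4 and 19.8 and then 47.0, 37.7 and 57.6 CPM (1.57 ± 0.10, adjusted p = 5.8e-09, limma). In both genes the 2 h values lay below all others. Gpr65, a proton-sensing receptor, Jdp2, an AP-1 repressor, and Vegfa, an angiogenic factor, rose after 2 h by 1.85, 2.56 and 1.59.

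Mir155hg, the host transcript of the microRNA miR-155, stood at 1.12, 0.205 and 0.621 CPM at 2 h and at 42.0, 5.28 and 26.2 CPM at 4 h (3.60 ± 0.37, adjusted p = 1.0e-06, limma). It was outside the rule for named genes and was chosen after its values were seen. The libraries measure the host transcript and not the mature microRNA.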
